A study of Homo sapiens with 24 samples.

Results

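MDA-MB-231, an established line of mesenchymal-like TNBC, was cultured as a control in both experiments on KIF20A, and the 2 control cultures are compared here. The first carried a control sgRNA (sgCtrl) and the second an empty vector (EV). Each was sequenced as 3 libraries from biological triplicates, so that 6 of the 24 libraries of the study were used. They were chosen by their labels alone, as the control columns of 2 tables, one for KIF20A depletion and one for overexpression, and were joined on Ensembl gene identifiers without the version number, which gave 23782 shared genes. The question was which transcripts are held at one level in this line and which are not. The sgRNAs of the study were delivered by lentivirus, and how the EV culture was made is not stated in the sources used here. The control guide and the vector backbone are not named in the sources used here. The 2 cultures belong to separate experiments, each treated here as a batch, though the labels name no batch. The tables also list different sets of genes, so batch, vector and annotation cannot be told apart in any difference given below. In bulk RNA, moreover, fewer cells of one kind and less RNA per cell cannot be told apart.

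MDA-MB-231 cells are known as a basal B, claudin-low model. They lack estrogen receptor, progesterone receptor and HER2 amplification, express the receptor tyrosine kinase AXL and the hyaluronan receptor CD44, and have lost the CDKN2A locus. Their constitutive output of inflammatory cytokines through NF-kB, a family of transcription factors that binds short GC-rich sites in promoters, is a textbook feature of the line. PEG10, an imprinted gene of retroviral origin, is expressed in several proliferating tumor lines.

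The 3 sgCtrl libraries held 44545826 to 50180783 reads and the EV libraries 17007632 to 21004868. Values were brought to CPM, counts of reads per 1000000 reads in shared genes, without a correction for gene length, and the 13463 genes whose mean CPM reached 1 were compared. Where a gene had a mean under 1 in one culture, it could pass only through the other, so its direction was fixed in advance. A gene was called higher or lower in EV where the 3 EV values lay entirely on one side of the 3 sgCtrl values and the difference of the mean log2(CPM + 1) was at least 1 in size. A gene was called stable where that difference was at most 0.32. No p-value belongs to these calls, since the tables were normalized separately. An adjusted p is given from edgeR's quasi-likelihood test on reads recovered from both tables and normalized together, and it measures the spread between these libraries only. The KIF20A sg1 libraries share table and batch with sgCtrl. The libraries labelled KIF20A overexpression share those of EV, but they stood apart from the line, with IRS4, a marker of embryonic kidney lines, at 1219 to 1751 CPM and AXL at 0.750 to 0.812. They are therefore cited only for how that table lists a gene.

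Both cultures held the markers of the line. AXL (chr19:41219223-41261766 on GRCh38) was at 968, 1107 and 812 CPM in EV and 1634, 1927 and 1681 in sgCtrl. The groups did not overlap, and the log2 difference was -0.87 (SE 0.15, n = 3 per group), just short of the size required for a call. With TMM or median-of-ratios scaling it was -1.11 or -1.06 and met it. CD44 (chr11:35138882-35232402) was at 788, 615 and 523 in EV and 1541, 1511 and 1257 in sgCtrl, a log2 difference of -1.17 (SE 0.20), or 2.24 times higher in sgCtrl, with an edgeR adjusted p of 0.00073. PEG10 (chr7:94656325-94669695) went the other way, at 218, 316 and 215 in EV against 75.5, 61.5 and 77.2 in sgCtrl, a log2 difference of 1.78 (SE 0.21), or 3.50 times higher in EV, with an edgeR adjusted p of 0.00015. Thus each of the 3 markers was read in all 6 libraries, and for each the groups lay apart. Exons of all 3 are overlapped by another gene in the annotation.

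KIF20A itself, the mitotic kinesin that the study targets (chr5:138178719-138187723), was at 101, 143 and 124 CPM in EV and 162, 174 and 157 in sgCtrl. The groups did not overlap, but the difference of -0.43 (SE 0.15) was not large enough for a call. The adjusted p of edgeR was 0.015. KIF20A sg1 libraries held 96.2 to 144, a range that overlaps that of EV.

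Genes that the line is known to lack had no or nearly no reads in either culture. CDKN2A, CDKN2B, MTAP and DMRTA1, the 4 genes listed for the deleted region, had 0 reads in all 6 libraries, which allows up to 3 reads per library by counting error alone. PGR had 0 reads in all 6, and ESR1 had reads in only 1 EV library, at 0.12. IRS4, UCHL1, NEFL and LIN28B, which mark embryonic kidney lines, were also at 0 in all 6. The leukocyte gene PTPRC reached at most 0.67. CDKN2A and IRS4 can be read in the EV table, since the libraries labelled KIF20A overexpression in it held reads of both (the plot of line markers by library). For the other genes at 0, and for the sgCtrl table, this was not tested.

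**Figure D1:**
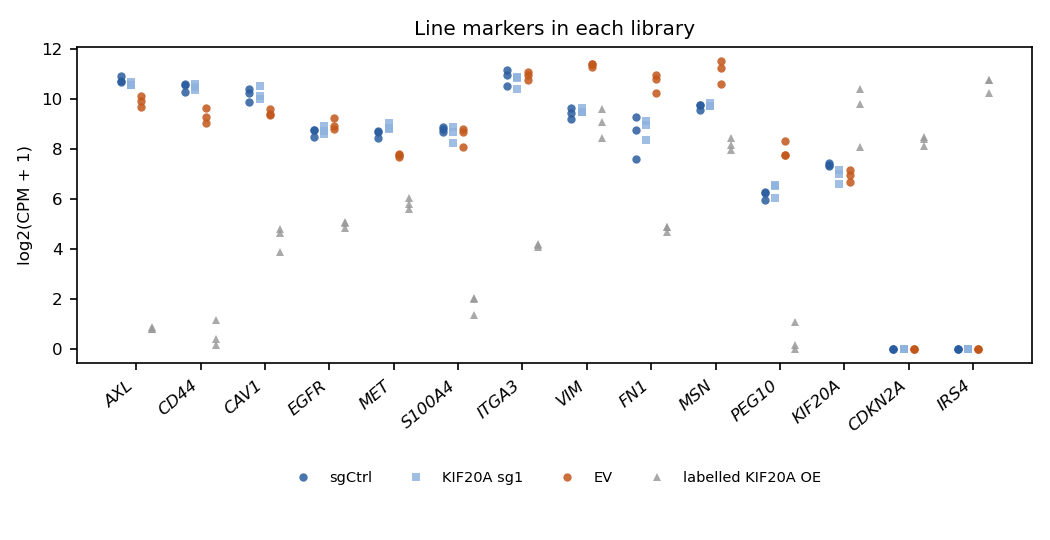
Line markers in each library. The vertical axis is log2(CPM + 1) and each symbol is 1 library of sgCtrl, KIF20A sg1, EV or the group labelled KIF20A OE. AXL and CD44 sit lower and PEG10, VIM, FN1 and MSN higher in EV than in sgCtrl, CDKN2A and IRS4 sit at 0 in both, and the libraries labelled KIF20A OE lie apart.

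Across the 13463 genes, libraries of one culture ranked genes more alike than libraries of different cultures. Spearman's rho, a description across genes that are not independent replicates, was 0.983 to 0.994 among sgCtrl libraries, 0.970 to 0.976 among EV libraries and 0.857 to 0.876 between the cultures. KIF20A sg1 libraries stood at 0.986 to 0.994 with sgCtrl and 0.857 to 0.877 with EV. Hence the distance between the controls exceeded that between control and depleted cells of the same batch. The SD between replicates had a median of 0.21 on the log2 scale in EV and 0.19 in sgCtrl, whereas the difference between cultures had a median size of 0.53.

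In all, 2249 genes (16.7%) were higher in EV, 1249 (9.28%) were lower and 4426 (32.9%) were stable. The remaining 5539 were neither. Without a minimum size, the groups lay apart for 8049 genes (59.8%), of which 4824 were higher in EV (35.8%) and 3225 lower (24%). The edgeR adjusted p was under 0.05 for 6614 genes (49.1%). Of the genes called, 64.3% were higher in EV, but this split depended on the scaling, with 50.1% under TMM and 52.9% under median of ratios. The median difference over all genes was 0.13 as reported and moved to -0.09 and -0.05 under those scalings, so small medians of gene lists below carry no direction. edgeR called 2307 genes higher and 1621 lower at an adjusted p under 0.05 and a log2 fold change of at least 1, and 2103 and 1240 of these were the genes called above. Among the genes higher in EV, every KIF20A sg1 value lay below every EV value for 2225 of 2249. Among the genes lower in EV, every KIF20A sg1 value lay above every EV value for 1226 of 1249. For nearly all called genes, KIF20A sg1 libraries thus lay with sgCtrl.

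**Figure D2:**
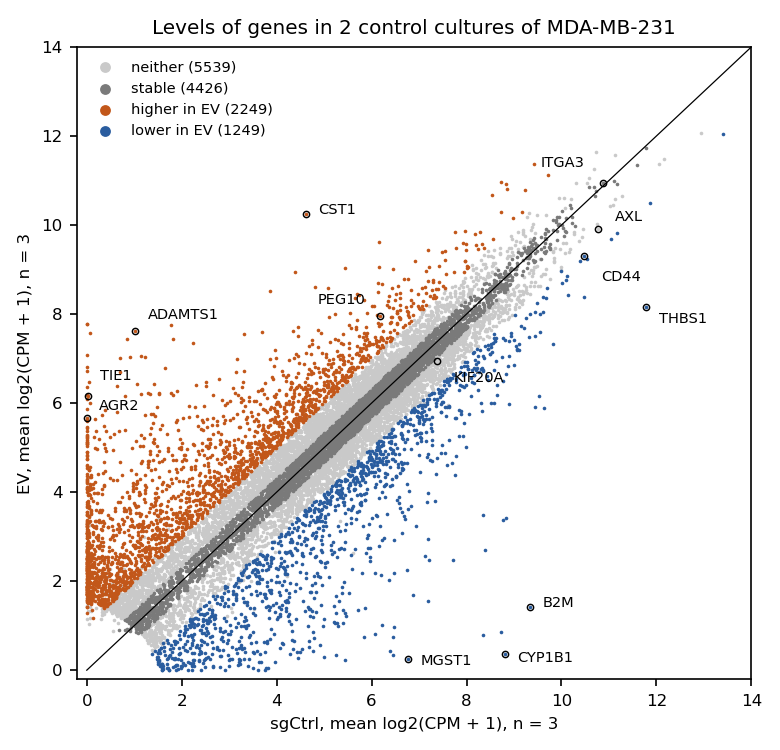
Mean level of each of 13463 genes in sgCtrl (horizontal axis) and EV (vertical axis), both as mean log2(CPM + 1) over 3 libraries, with the line of equality. Orange points are the 2249 genes higher in EV, blue points the 1249 lower in EV and dark grey points the 4426 stable genes. CST1, ADAMTS1, TIE1 and AGR2 lie far above the line and CYP1B1, MGST1 and B2M far below it.

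By CPM, the 10 most abundant stable protein-coding genes without exon overlap were HSP90AB1, YWHAZ, ITGA3, ANXA2, AHNAK, NPM1, PPIA, HNRNPA1, CAVIN1 and LMNA. HSP90AB1, YWHAZ and PPIA among them had groups that did not overlap. By edgeR, the log2 fold changes of HSP90AB1, YWHAZ and NPM1 were -0.38, -0.39 and -0.47, beyond the limit of 0.32 used for stable genes. The stable set also depended on the scaling, since 2991 of its 4426 genes stayed stable under TMM and 3274 under median of ratios. ITGA3, the integrin α3 chain that binds laminin, was at 1993, 1736 and 2161 in EV and 1990, 2297 and 1468 in sgCtrl, a difference of 0.05 (SE 0.21). ANXA2, a membrane-binding annexin, was at 1747, 2020 and 1770 in EV and 1502, 1610 and 1857 in sgCtrl. For both, the ranges of the cultures overlapped. Among markers of the mesenchymal state, EGFR, at 478, 611 and 446 in EV and 436, 431 and 358 in sgCtrl, differed by 0.32, the metastasis-associated calcium-binding protein S100A4 by -0.27 and the transcription factor SNAI2 by 0.07. Differences of this size carry no direction, since several of them change sign with another scaling. GAPDH differed by 0.04 (SE 0.07) and TEAD1, the DNA-binding partner of YAP, by -0.01 (SE 0.11). Of 24 DNA damage response genes tested, 13 were stable, beside 32.9% of all genes. So were 24 of 53 nuclear OXPHOS subunits and 37 of 79 cytosolic ribosomal protein genes. For SWI/SNF subunits the stable share, 9 of 25, was near that of all genes.

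Cytokine and chemokine genes driven by NF-kB were lower in EV, and these are among the genes for which the line is known. Of 34 genes listed, 25 passed the minimum level. Of these, 13 were lower in EV, 2 were higher, 2 were stable and 8 were neither, against a background of 9.28% lower and 16.7% higher. IL1B, with an EV mean of 0.41 CPM, passed only through sgCtrl, and PTGS2, with a sgCtrl mean of 0.28, only through EV. Their median difference was -1.49, beside 0.13 for all genes, and it lay between -1.79 and -1.05 when each library was left out in turn. The summed level of the list was 866 to 1080 CPM in EV and 2188 to 3087 in sgCtrl. To show the NF-kB motif in its place, the 250 bases before the RefSeq start (GRCh38.p14) are given for 3 members that were lower in EV and for TNFAIP3, which was stable, all chosen because they hold it. Capitals mark matches, on either strand, to a core of the NF-kB motif (GGG, any 2 bases, then TTTCC).

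IL6, chr7:22726950-22727199, plus strand: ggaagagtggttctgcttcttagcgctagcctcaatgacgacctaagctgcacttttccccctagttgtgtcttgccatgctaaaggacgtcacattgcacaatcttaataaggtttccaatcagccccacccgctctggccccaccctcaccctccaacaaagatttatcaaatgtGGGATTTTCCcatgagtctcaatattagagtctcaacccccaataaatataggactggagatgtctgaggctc
CXCL1, chr4:73869143-73869392, plus strand: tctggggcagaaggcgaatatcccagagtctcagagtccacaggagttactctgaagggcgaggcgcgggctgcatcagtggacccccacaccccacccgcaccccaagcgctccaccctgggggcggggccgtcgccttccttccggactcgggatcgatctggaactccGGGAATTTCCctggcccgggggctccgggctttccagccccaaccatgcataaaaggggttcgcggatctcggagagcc
CXCL2, chr4:74099196-74099445, minus strand: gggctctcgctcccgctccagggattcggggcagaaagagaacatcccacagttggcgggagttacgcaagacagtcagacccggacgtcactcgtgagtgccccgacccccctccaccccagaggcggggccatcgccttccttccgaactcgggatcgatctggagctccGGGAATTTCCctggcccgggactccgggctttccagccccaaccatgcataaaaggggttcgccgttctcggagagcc
TNFAIP3, chr6:137867009-137867258, plus strand: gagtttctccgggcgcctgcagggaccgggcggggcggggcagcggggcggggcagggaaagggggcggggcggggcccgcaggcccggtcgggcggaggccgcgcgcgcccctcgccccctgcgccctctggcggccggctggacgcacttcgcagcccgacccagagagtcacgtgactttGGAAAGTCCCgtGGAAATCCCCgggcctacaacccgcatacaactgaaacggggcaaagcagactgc

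The match began 73 bases before the start in IL6, 79 in CXCL1 and 78 in CXCL2, and matches began at 67 and 55 in TNFAIP3. Of the 25 listed genes with a RefSeq promoter, 11 (44%) held the motif, whereas 473 of 27303 promoters (1.73%) did. It was found in 5 of the 11 genes that were lower in EV and had a promoter, and not in CXCL8, IL1A, IL1B, CSF2, TNFAIP2 or ICAM1. It was also found in NFKBIA, NFKB1 and CXCL3, which were neither stable nor called. A match is a string of letters, not an occupied site.

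IL6, which encodes an inflammatory cytokine, was at 2.86, 0.63 and 1.00 CPM in EV and 56.7, 32.9 and 43.2 in sgCtrl, 29.6 times higher in sgCtrl (edgeR adjusted p = 8.1e-05). The chemokine CXCL8 was at 27.8, 18.6 and 25.4 in EV against 231, 162 and 185, and CXCL1 at 11.7, 2.71 and 16.6 against 82.0, 69.6 and 63.1. No EV value reached the lowest sgCtrl value for any of these 3 genes. IL1A and IL1B, the interleukin-1 ligands, differed by -4.33 (SE 0.32) and -3.87 (SE 0.26) on the log2 scale. IL1A was at 0.39 to 1.82 in EV and 35.7 to 45.0 in sgCtrl. CSF1, macrophage colony-stimulating factor, was at 81.7 to 170 in EV and 410 to 594 in sgCtrl. In contrast, PTGS2, which encodes cyclooxygenase-2, was at 43.2, 12.4 and 16.1 in EV and 0.42, 0.33 and 0.08 in sgCtrl, and the collagenase gene MMP1 was at 4.10, 89.6 and 66.9 against 2.74, 3.25 and 2.89. MMP1 also reached 71.3 in a KIF20A sg1 library, within the range of EV. The negative regulator TNFAIP3 differed by -0.09 (SE 0.34), with overlapping groups. The transcription factor subunits NFKB1, NFKB2 and RELB, which are on the same list, differed by -0.36, -0.69 and -0.92. TNFAIP3 and IL11 (0.03) differed by less than these subunits. KIF20A sg1 libraries held IL6 at 32.0 to 59.5.

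Hypoxia response genes were higher in EV. Of 31 genes tested, 15 were higher, 1 was lower and 6 were stable, beside 16.7%, 9.28% and 32.9% of all genes, with a median difference of 0.96 (0.78 to 1.25 on leaving out each library). ANGPTL4, which encodes a secreted inhibitor of lipoprotein lipase, was at 254, 110 and 80.4 CPM in EV and 1.09, 1.44 and 1.13 in sgCtrl, 122 times higher in EV. CA9, a carbonic anhydrase and classical hypoxia marker, was at 26.9, 33.4 and 8.53 against 1.49, 1.69 and 0.93, with an edgeR adjusted p of 0.00034. ADM, which encodes the vasodilator adrenomedullin, was at 243, 86.0 and 93.6 against 17.5, 16.9 and 20.5. In each of these genes the lowest EV value lay well above the highest sgCtrl value. For ADM, ANGPTL4 and LOX, EV replicate 1 was the highest of the EV libraries. NDRG1, a stress-induced gene, was at 1454 to 2688 in EV and 379 to 474 in sgCtrl, and the glucose transporter SLC2A3 was 130 to 175 against 19.8 to 37.0. Other members were stable by the difference of their means, though replicates of some were spread widely. The glycolytic enzyme ENO1 differed by -0.04 (SE 0.11), SLC2A1 by 0.17 (SE 0.32) and VEGFA by 0.04 (SE 0.64), the last with EV values from 183 to 679 that enclosed those of sgCtrl.

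Genes of sterol and fatty acid synthesis were likewise higher in EV, with 15 of 33 higher, 2 lower and 5 stable. Over all genes, 16.7% were higher, 9.28% lower and 32.9% stable. The median of the list was 0.92 (0.77 to 1.19 on leaving out each library). The count higher was 8 with TMM and 10 with median-of-ratios scaling. HMGCS1, an early enzyme of the mevalonate pathway, was at 104, 177 and 205 in EV against 27.4, 20.5 and 27.0 in sgCtrl, 6.50 times higher in EV (edgeR adjusted p = 6.2e-05). SREBF2, which encodes the transcription factor of the pathway, was at 232, 275 and 291 against 108, 107 and 109. Both genes were apart in all libraries. INSIG1, IDI1, FDFT1, MSMO1 and MVK were called in the same direction, and SCD, the stearoyl-CoA desaturase, differed by 1.88 (SE 0.36). The elongase ELOVL6 was lower, at 64.2 to 107 in EV and 237 to 279 in sgCtrl. Fatty acid synthesis proper was stable, with FASN at -0.09 (SE 0.18), ACACA at 0.24 and ACLY at 0.31. A sterol regulatory element (ATCAC, any 2 bases, then CAC, on either strand) stood in the 250-base window of 1 of 25 listed genes with a promoter, SREBF2, and in 0.491% of all promoters.

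Antioxidant genes of NRF2, a transcription factor released by oxidative stress, were lower in EV. Of 27 tested, 10 were lower, 1 was higher and 3 were stable, beside 9.28%, 16.7% and 32.9% of all genes. The median was -0.83, between -0.83 and -0.67 on leaving out each library. AKR1B1, an aldo-keto reductase, was at 49.0, 64.4 and 65.2 in EV and 654, 656 and 790 in sgCtrl, 11.8 times higher in sgCtrl. NQO1, the quinone reductase, was at 37.8, 33.0 and 27.5 against 181, 158 and 198, and TXNRD1, thioredoxin reductase, at 357, 367 and 284 against 1308, 1526 and 1417. No group overlapped another in these 3 genes. NFE2L2, which encodes NRF2, was called lower as well, at 71.3 to 81.9 against 153 to 221. HMOX1, which degrades heme, was the one member called higher, at 93.4, 21.4 and 42.8 against 15.9, 13.6 and 11.3. GCLC, the catalytic subunit for glutathione synthesis, was stable (-0.23, SE 0.22), while its partner GCLM was lower at 29.0 to 39.4 against 106 to 153. Genes of iron handling, chosen after their values were seen, included FTL and FTH1 of the same list and TFRC, which is not on it. TFRC, the transferrin receptor, was at 57.8 to 88.4 in EV and 613 to 850 in sgCtrl, and the ferritin light chain FTL was 2.53 times higher in sgCtrl, whereas the heavy chain FTH1 was at 638 to 820 in EV and 385 to 489 in sgCtrl, a difference of 0.77 that was not called.

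**Figure D3:**
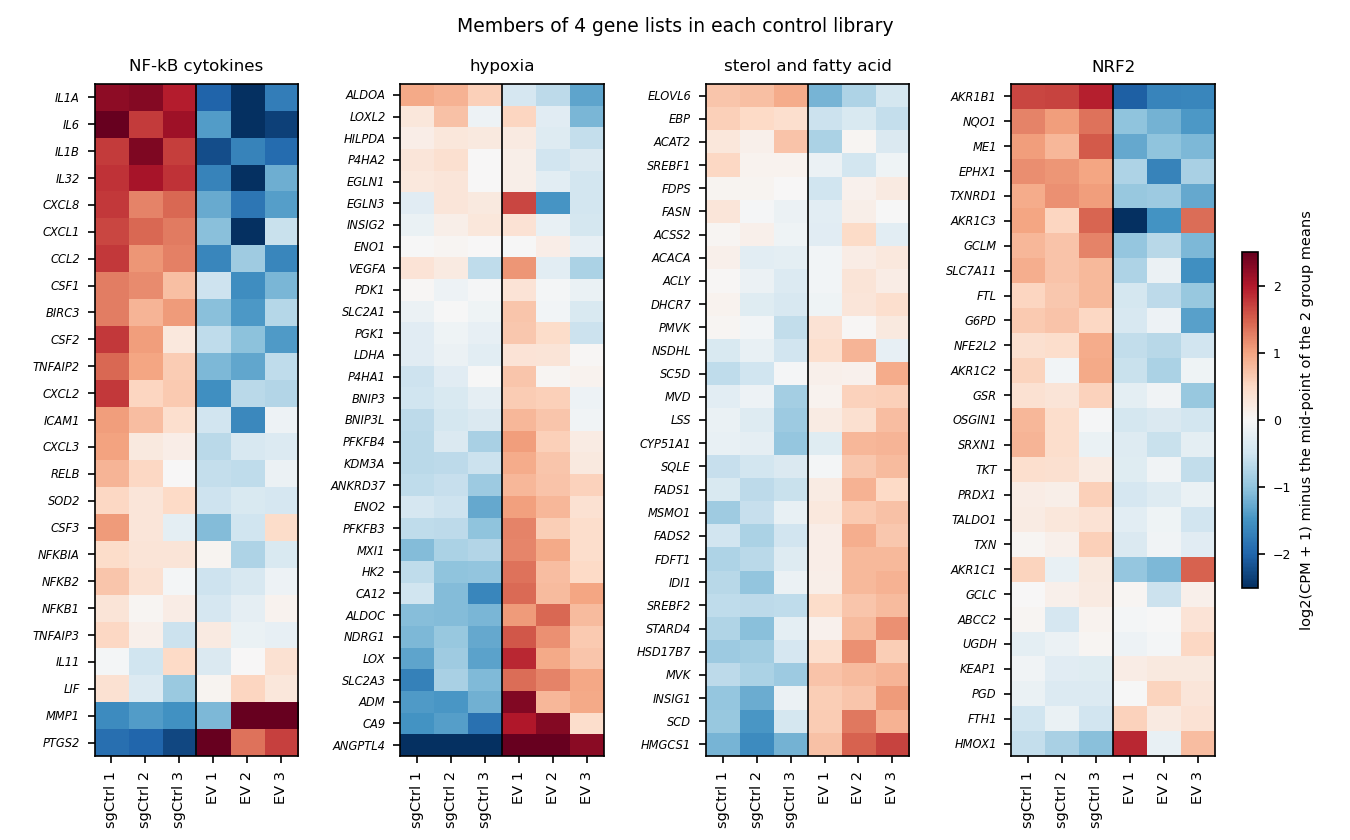
Members of 4 gene lists (rows, without members not reported here) in the 3 sgCtrl and 3 EV libraries (columns), ordered by their difference. Color gives log2(CPM + 1) minus the mid-point of the 2 group means, drawn on a scale that ends at -2.5 and 2.5. IL1A, IL6 and IL1B are red in sgCtrl and blue in EV, HMGCS1 and ANGPTL4 the reverse, and EV replicates differ among themselves for MMP1, EGLN3 and AKR1C3.

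Amino acid response genes of ATF4 were lower in EV in 11 of 28 cases, higher in 1 and stable in 7 (median -0.72). The shares over all genes were 9.28%, 16.7% and 32.9%. SLC7A5, the large neutral amino acid transporter, was at 203, 170 and 118 in EV and 862, 948 and 900 in sgCtrl. PSAT1, an enzyme of serine synthesis, was at 44.1, 74.4 and 38.1 against 157, 231 and 270. By their means they were 5.52 and 4.20 times higher in sgCtrl. ATF4 itself was stable, with a difference of 0.20 (SE 0.13) and overlapping groups, as was its target TRIB3 (-0.14).

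Mitotic genes had a negative median, but most differed by less than the size of a call. Of 28 mitotic genes tested, 7 were lower, none was higher, 3 were stable and 18 were neither, with a median of -0.73. The corresponding counts were 4 lower, 2 higher and 6 stable of 35 S phase genes, with a median of -0.60. The share of S phase genes lower in EV was near the 9.28% of all genes. With TMM scaling, 13 mitotic and 8 S phase genes were lower and none was higher. BUB1, a checkpoint kinase, was at 87.2, 136 and 110 in EV and 284, 315 and 372 in sgCtrl, and POLA1, the catalytic subunit of DNA polymerase α, at 20.8, 34.2 and 31.3 against 93.2, 84.7 and 105. CCNA2, cyclin A2, differed by -1.44 (SE 0.34). Meanwhile UBE2C, AURKB and CENPA were stable, at -0.25, -0.21 and 0.07, as were the replication genes MCM4 and FEN1 (-0.29 and -0.04). EV replicate 1 was the lowest of the EV libraries for BUB1, CCNA2 and POLA1, and the median of the mitotic list was -0.58 without it. Replication-dependent histone genes, whose mRNAs normally lack a poly-A tail, went the other way. Of 52 listed, 14 passed the minimum and 8 of these were higher in EV, with none lower, beside 16.7% and 9.28% of all genes. H2AC6, for example, was at 60.1, 34.9 and 42.9 against 6.75, 4.98 and 5.58. Histone genes, like the class I HLA genes and HSPA1A below, have near-identical relatives, so reads may be split between copies and their values are uncertain.

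Matrix and adhesion genes were higher in EV in 11 of 37 cases, beside 16.7% of all genes (median 0.58). They were lower in 3 cases, near the 9.28% of all genes. Stable members were few, 6 of these 37 and 3 of 25 genes of the line's mesenchymal identity, beside 32.9% of all genes. COL6A3, a chain of collagen VI, was at 363, 248 and 462 in EV and 75.3, 71.9 and 23.4 in sgCtrl, and the integrin chain ITGB8 at 64.3, 42.8 and 76.3 against 1.97, 1.34 and 2.16. COL12A1 was lower, at 64.3, 91.1 and 62.4 against 456, 358 and 387. ITGB1, the β chain shared by many integrins, and its partner ITGA3 were stable (-0.06 and 0.05). Among the mesenchymal genes of the line, 9 of 25 were higher and 2 lower, the latter near the 9.28% of all genes. Fibronectin (FN1) was at 2011, 1204 and 1776 in EV and 430, 620 and 192 in sgCtrl, 4.02 times higher in EV, and LOX, which cross-links collagen, was 5.48 times higher. The intermediate filament gene VIM, whose exons overlap another gene, was at 2521 to 2736 against 587 to 801. In the opposite direction, thrombospondin-1 (THBS1) was at 329, 204 and 349 in EV and 3521, 3620 and 3420 in sgCtrl, 12.0 times higher in sgCtrl with an edgeR adjusted p of 6.6e-06. The median of this list, 0.32, came down to 0.08 under TMM.

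YAP and TEAD targets were lower in EV in 7 of 23 cases, higher in 2 and stable in 8. Over all genes these shares were 9.28%, 16.7% and 32.9%, so the stable share was near its background and the higher share below it. CCN2, connective tissue growth factor, was at 489, 816 and 820 in EV against 177, 112 and 152. Its relative CCN1 was at 544, 765 and 478 against 1458, 1380 and 1184. These matricellular genes, which are often read as a pair, were thus on opposite sides, each with groups that did not overlap. TGFB2, which encodes a TGF-β ligand, was 9.52 times higher in sgCtrl, while TGFBR2, the type II receptor, was 3.19 times higher in EV (559 to 627 against 179 to 190).

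Immediate early genes were higher in EV in 10 of 28 cases and lower in 2, beside 16.7% and 9.28% of all genes (median 0.77). DUSP6, a phosphatase induced by ERK signaling, was at 378, 380 and 499 against 87.2, 63.8 and 60.2, and DUSP1 at 158, 100 and 53.8 against 25.6, 16.1 and 12.4. SPRY4, an inhibitor of the same pathway, was also called higher, at 248 to 327 against 64.8 to 96.4. PHLDA1 and SPRED1 were stable, at 0.10 and 0.17. FOS and EGR1 were not called, since sgCtrl replicate 1 held 36.3 and 62.1 while the other sgCtrl libraries held 5.14 to 6.59 and 8.41 to 11.2.

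Interferon-stimulated genes showed no common direction. Of 41 tested, 8 were higher, 2 lower and 15 stable, beside 16.7%, 9.28% and 32.9% of all genes. The higher and stable shares were thus near those of all genes. The median of -0.08 was negative under the other scalings too but changed sign on leaving out single libraries (-0.09 to 0.08). IRF7, an interferon-induced transcription factor, was at 45.9, 46.5 and 49.5 against 12.4, 11.0 and 10.5, while MX1, an antiviral GTPase, was at 0.57, 0.05 and 1.47 against 20.8, 18.9 and 17.3. BST2, OAS3 and IFIT5 were stable. Genes of MHC class I presentation were also divided, with 4 of 17 higher and 6 lower, beside 16.7% and 9.28% of all genes. HLA-C was at 454, 250 and 349 in EV against 53.6, 65.0 and 41.7, and TAP2, a subunit of the peptide transporter, at 48.1 to 55.1 against 4.25 to 9.07. C6orf47 and TRIM39, nearby on chromosome 6, were at 0 and 0.14 to 0.30 in sgCtrl and at most 0.20 in KIF20A sg1. In EV they were at 23.5 to 30.5 and 29.6 to 41.5. HLA-DRA, also on chromosome 6, was higher in sgCtrl. Whether low sgCtrl levels of HLA-C and TAP2 go with that whole table was not tested. B2M, the light chain of class I molecules, was at 1.52, 1.74 and 1.71 in EV and 553, 679 and 731 in sgCtrl. It was just as low in the libraries labelled KIF20A overexpression of the same table (0.439 to 0.589), so its low level goes with the table and not with EV alone. Whether that is a matter of counting was not tested.

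**Figure D4:**
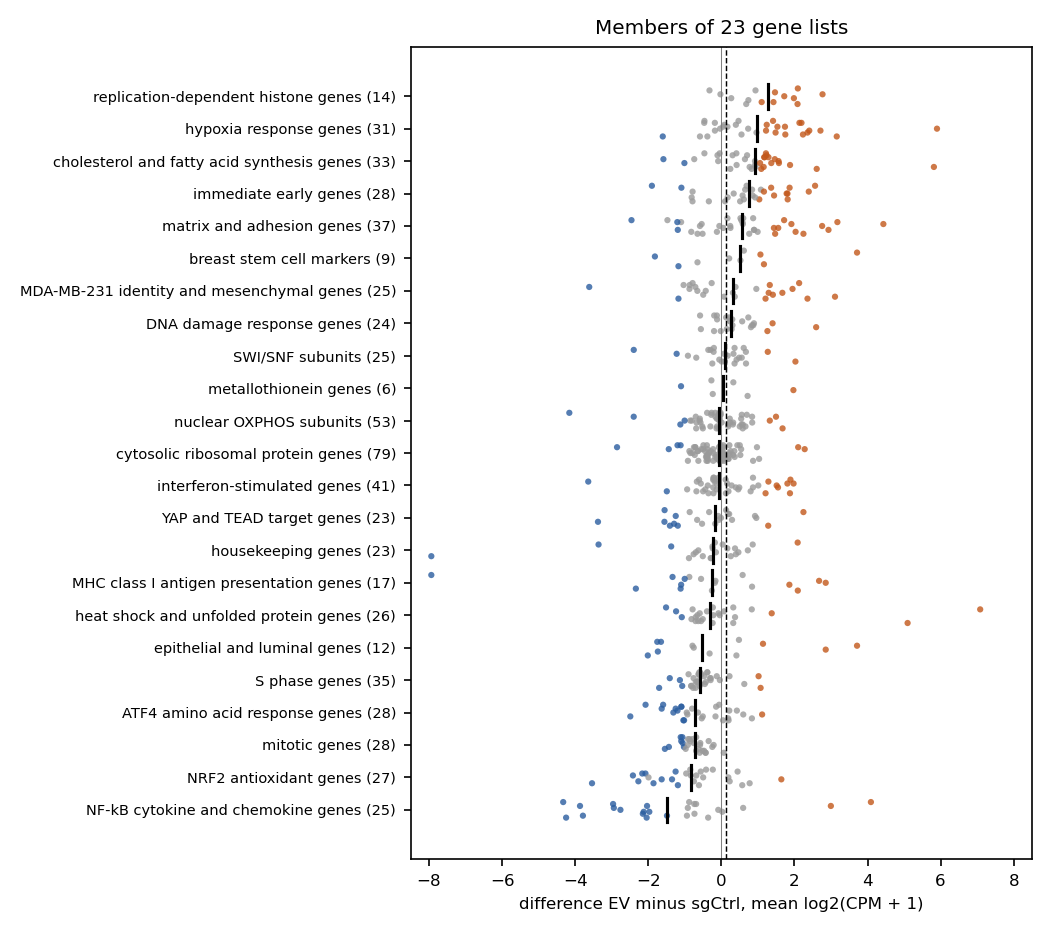
Differences of the members of 23 gene lists. The horizontal axis is the difference EV minus sgCtrl in mean log2(CPM + 1), each point is 1 gene that passed the minimum (numbers in brackets), orange and blue points are genes called higher and lower in EV, and black bars are list medians. The dashed line is the median of all genes, 0.13, and the medians run from -1.49 for NF-kB cytokines to 1.26 for replication-dependent histones.

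The remaining lists gave smaller or mixed results, to be read beside 16.7% higher, 9.28% lower and 32.9% stable over all genes. Among 9 breast stem cell markers tested, 3 were higher and 2 lower, with 1 higher under TMM. CD24 was at 16.5, 4.35 and 75.8 in EV and at 0.28 to 0.77 in sgCtrl, so that the EV libraries differed widely among themselves, and ALDH1A3 was lower at 0.97 to 5.05 against 8.03 to 19.1. Among epithelial and luminal genes, 12 of 21 passed, 3 were higher and 4 lower. The tight junction gene CLDN7 was at 53.5 to 94.4 against 5.10 to 12.7 and the luminal factor GATA3 at 6.53 to 10.6 against 29.2 to 33.4. The summed level of this list was 1963 to 2311 in EV and 1623 to 2013 in sgCtrl. CDH1, ESRP1 and KRT14 did not reach the minimum. Of 13 genes listed for immune, endothelial and matrix-producing cells, 4 were tested. CDH5, PECAM1 and the collagen gene COL1A1, which is also on the matrix list, were higher and CD14 was lower. CDH5 passed the minimum only through EV, at 3.12 to 6.91 in EV and 0.04 to 0.09 in sgCtrl. Summed levels of the list were 35.6 to 72.5 in EV and 18.8 to 25.6 in sgCtrl. The part of such cells in these results was not tested. Of 15 genes of embryonic kidney lines only 3 passed, PEG10 among them, and 4 were at 0 in all 6 libraries. In the SWI/SNF list, 2 were higher and 2 lower of 25, and the ATPase SMARCA2 was at 11.7 to 16.3 against 68.8 to 82.5, while ARID1A and SMARCC1 were stable. In nuclear OXPHOS, 3 were higher and 4 lower of 53, and in ribosomal proteins 2 higher and 4 lower of 79. Heat shock and unfolded protein genes had 3 higher and 3 lower of 26, DNA damage response genes 3 higher and none lower of 24, metallothioneins 1 each of 6, and housekeeping genes 1 higher and 3 lower of 23. The medians of the SWI/SNF and metallothionein lists turned from positive to negative under TMM and median of ratios. The 13 genes of the mitochondrial genome took 1.13% to 2.84% of sgCtrl reads and were not analysed for EV.

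By the rule set for the widest differences among protein-coding genes with no exon overlap, the genes highest in EV over sgCtrl included ADAMTS1, TIE1, ANGPTL4, SPDEF, AGR2, CST1, RHOJ, ROBO1 and CPVL. ADAMTS1, a metalloprotease of the matrix, was at 273, 182 and 148 in EV and 1.07, 1.36 and 0.73 in sgCtrl. CST1, a cysteine protease inhibitor, was at 1250, 777 and 1855 against 21.2, 23.3 and 26.5, or 54.7 times higher in EV. TIE1, an endothelial receptor tyrosine kinase, was at 66.2, 64.3 and 81.0 in EV, with reads in only 1 sgCtrl library, at 0.05. For each of these 3 genes all EV values were above all sgCtrl values, and CST1 was well above the minimum level in sgCtrl as well. SPDEF, an ETS factor of luminal and secretory epithelium, was at 97.7, 61.2 and 91.9 against 0.79, 0.33 and 0.57. AGR2, a disulfide isomerase of secretory cells, was at 74.4, 49.0 and 33.3 in EV and had 0 reads in all 3 sgCtrl libraries, so that it was at least 816-fold higher in EV against a floor of 3 reads per library. ROBO1 was uneven, at 8.72, 67.9 and 108 in EV. The libraries labelled KIF20A overexpression held ADAMTS1, ROBO1 and CPVL as well, and the other 6 genes at no more than 1.22.

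The genes highest in sgCtrl over EV included B2M, MGST1, TSEN15, PALM2AKAP2, PARD6B, MATN2, DNAH2, IL7R and GRAMD1B. MGST1, a microsomal glutathione transferase, was at 0.29, 0.19 and 0.12 in EV and 89.8, 98.2 and 143 in sgCtrl. PARD6B, a subunit of the polarity complex, was at 6.10, 1.21 and 1.18 against 109, 109 and 130, and MATN2, a matrix adaptor, at 24.5, 6.09 and 6.76 against 275, 370 and 337. All sgCtrl values of these genes were above all EV values. IL7R, the interleukin-7 receptor chain, was at 0, 1.02 and 0.59 against 30.4, 27.2 and 30.6. B2M, MGST1, TSEN15 and IL7R were at 0.857 or below in the libraries labelled KIF20A overexpression, whereas GRAMD1B and PARD6B were read there at 14.5 to 21.6.

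Presence in one culture alone, at 10 or more in each of its libraries and under 0.5 in each library of the other, was met by 95 genes in EV and 12 in sgCtrl, the latter 24 without EV replicate 3. With pseudoautosomal and Y-linked genes left out, 56 and 11 of these were protein-coding and 11 and 2 had no exon overlap. The EV genes without overlap were AGR2, ATP10A, C6orf141, CACNA2D4, DSC2, EDNRA, EPOP, HSPA1A, NSMCE3, RHOJ and TIE1, and the sgCtrl genes were MGST1 and RASD2, named after their values were seen. EDNRA, the endothelin A receptor, was at 11.9, 14.0 and 19.5 in EV and 0.37, 0.04 and 0.16 in sgCtrl. DSC2, a desmosomal cadherin, was at 40.2, 32.6 and 63.8 against 0.42, 0.29 and 0.16. RASD2, a small GTPase, was at 19.2, 27.3 and 16.4 in sgCtrl and 0.10 to 0.48 in EV. EPOP, NSMCE3 and HSPA1A had 0 reads in all sgCtrl libraries and at most 0.04 in those of KIF20A sg1, so that their low level was common to all libraries of that table compared here.

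Calls were not spread evenly over annotation classes. Protein-coding genes without exon overlap were higher in EV in 12.2% and lower in 10.6% of 5743 cases. Where exons overlapped another gene on the opposite strand only, the shares were 14.3% and 8.64% of 4191, and with overlap on the same strand they were 20.9% and 7.89% of 2168. Long noncoding RNAs (36.1% higher, 7.21% lower of 1165) and processed pseudogenes (38.7% and 11.0% of 173) had larger shares higher in EV than the protein-coding classes. All 12 pseudoautosomal genes tested were at 0 in every sgCtrl and KIF20A sg1 library. They could pass the minimum only through EV, so that all 12 were higher in EV is no result beside the other classes. Whether the duplicate pseudoautosomal rows, which were left out of the sgCtrl data, bear on this was not tested. Exon length and GC content had little relation to the difference among the 5743 genes, with Spearman's rho across genes of -0.04 and 0.04. To see what same-strand overlap did, 38 protein-coding genes present in one culture were each summed with their overlapping genes. Pseudoautosomal and Y-linked genes were left out, and the step was added after the data were seen. The sums of 25 were still apart by at least 1 in the same direction, 1 sum was apart in the opposite direction and the sums of 4 were stable. The median difference went from 4.66 for the genes alone to 1.41 for the sums. The read-through gene of URGCP and MRPS24 differed by 5.17 alone and by 0.11 as a sum with both, and that of RPS15A and ARL6IP1 by 6.18 alone and by 0.00 as a sum. Conversely, CYP1B1, a cytochrome P450 that metabolizes estrogens, differed by -8.44 alone and -8.40 with its same-strand neighbor RMDN2-AS1, at 0.19 to 0.38 in EV against 421 to 499. Lists were therefore also counted over members without overlap. There, 8 of 12 hypoxia genes were higher and none lower in EV, 5 of 14 sterol and fatty acid genes were higher and none lower, 8 of 16 NF-kB cytokine genes were lower and none higher, and 5 of 16 NRF2 genes were lower and 1 higher.

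**Figure D5:**
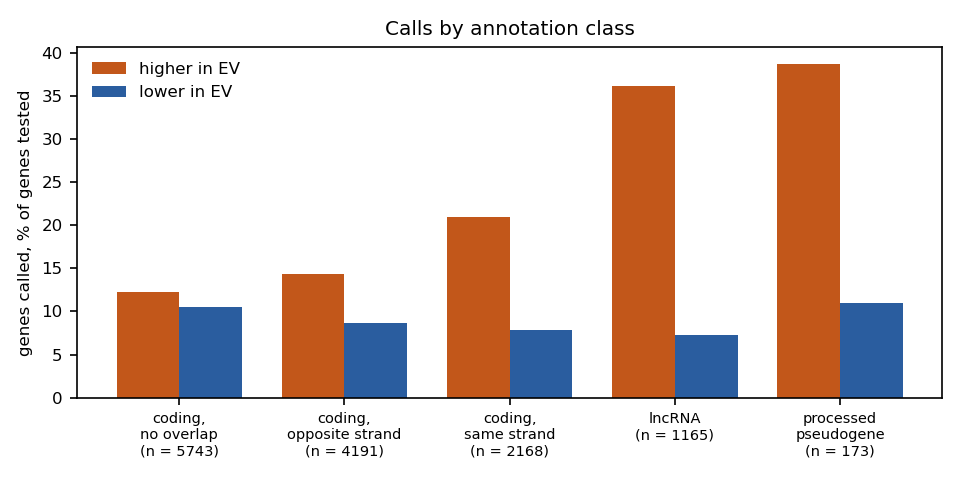
Share of tested genes called higher (orange) or lower (blue) in EV, in percent, for 5 annotation classes of GENCODE 44, without the 12 pseudoautosomal genes. Bars start at 0 and numbers below are genes tested. Over these 5 classes, the share higher in EV rises from 12.2% without exon overlap to 38.7% for processed pseudogenes, while the share lower stays between 7.21% and 11.0%.

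EV libraries also differed among themselves in genes that were low in that culture. Of 61 protein-coding genes without overlap that were lower in EV by at least 3 on the log2 scale, EV replicate 3 was the highest of the EV libraries for 31, replicate 1 for 20 and replicate 2 for 10. Their median level was 4.59% of the sgCtrl mean in replicate 3 and 2.79% and 2.27% in replicates 1 and 2. CEMIP, a hyaluronan-degrading protein that was named after its values were seen and whose exons overlap another gene, was at 2.67, 1.16 and 33.1 in EV and 411, 446 and 200 in sgCtrl, and SERPINA1, an antiprotease, at 1.52, 5.41 and 27.2 against 162, 181 and 106. Each EV value of both genes was below every sgCtrl value.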

How the data were processed

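Poly-A RNA from biological triplicates was sequenced as stranded, paired-end libraries. Per the submitters' processing notes, reads were aligned with HISAT2 2.0.5 and counted per gene with featureCounts 1.5.0-p3, on GRCh38. The annotation release and the strand setting are not given in the sources used here. The depletion table deposited by the authors holds a depth-normalized signal per gene whose columns sum to between 977394 and 1028621. The overexpression table deposited by the authors holds CPM values whose columns sum to 1000000, for 23792 genes, each with at least 7 reads over its libraries. In both, 100% of values were whole multiples of the value of 1 read (within 0.01 reads), and counts of reads were recovered from these deposited values.

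From the files, 23782 shared genes were rescaled to CPM per library without mitochondrial genes, and 44 duplicate pseudoautosomal rows were left out. Since the tables were normalized separately, calls came from the rule given with the results, with a pseudocount of 1, and from no test. The recovered reads were also fitted together with edgeR 4.0.16 (R 4.3.3, TMM, quasi-likelihood, Benjamini-Hochberg adjustment over 13463 genes), with limma 3.58.1 and DESeq2 1.42.0 as alternatives. Programs were tested on simulated data. Exon overlaps (bedtools 2.31.1) and biotypes came from GENCODE 44, which matched a symbol to 23722 of the shared genes, and promoters from RefSeq. No column of the tables used was unmapped.

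The cultures, markers and gene lists were chosen with earlier results of these data known. Genes named were the markers and KIF20A, up to 4 called members with the largest difference and up to 3 abundant stable members per list, the 10 genes most different in each direction with a mean of at least 10 in the higher culture and no exon overlap, and the 10 most abundant stable genes. List members and other genes named beyond that rule were chosen after their values were seen. Some genes that the rule names are not reported here. The list counts without exon overlap, the list medians under other scalings and the overlap sums were added after the data were seen.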

Additional observations from a re-analysis of the deposited data

Results flagged for a closer look

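Signal was present in sgCtrl for protein-coding genes that had no EV value to set beside it, at 10 or more in each sgCtrl library, and these 13 genes entered no comparison above. Means over the 3 sgCtrl libraries are given in the deposited units of that table. The acute-phase genes SAA1 and SAA2 were at 302 and 69.9, LCN2, an iron-binding lipocalin, at 123, and the cytokine gene IL24 at 16.8. The adhesion GPCR ADGRF1 was at 124, PDZK1IP1 at 68.0 and the cystatin CST7 at 17.2. TMEM14B was at 136, the splicing factor SRSF9 at 92.5, NBPF8 at 62.2, the AMPK subunit PRKAG1 at 48.6 and the mitochondrial topoisomerase TOP1MT at 23.3. The unnamed gene ENSG00000284976 was at 28.9. No fold against EV is given, since there were no EV values for these genes.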

How the results depend on the processing

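The counts of genes higher and lower in EV were 2249 and 1249. They were 2316 and 1202 on the values as deposited, 1741 and 1737 with TMM, 1813 and 1616 with median of ratios, 2561 and 1393 with a pseudocount of 0.1, 2307 and 1621 by edgeR, 2338 and 1594 by DESeq2, and 1959 and 1509 by limma. A minimum mean of 10 left 1175 and 822 of 9694 genes and a median Spearman's rho between the cultures of 0.792 in place of 0.869, fewer genes being tested. Protein-coding genes without exon overlap gave 702 and 606, with 1992 stable, of 5743. With no minimum, 11308 of 22652 genes were stable. Leaving out each library in turn gave 2095 to 2484 higher, 1231 to 1396 lower and 4308 to 4500 stable. Presence in EV alone was met by 96 to 109 genes and in sgCtrl alone by 12 to 24, the highest without EV replicate 3. Replicate numbers did not pair the libraries, the correlations of same-numbered deviations being -0.012, -0.206 and -0.062, and edgeR with the replicate block called 2175 and 1601. No gene that the naming rule gave as higher or lower in EV changed direction under the scalings, the smaller pseudocount, edgeR or on leaving out a library. Among named stable genes, the sign changed for 20 with TMM, 15 with median of ratios, 7 by edgeR and at most 11 on leaving out a library, and 34 and 21 uncalled named genes moved by more than the spread between replicates with TMM and median of ratios. Of 38 protein-coding genes present in one culture with same-strand overlap, 25 were apart by at least 1 in the same direction as sums. AXL became called with TMM (-1.11) and median of ratios (-1.06), and KLF4, TYMS, KIF23, AURKA, SLBP, F3, MT1F and SMARCD3 fell short of a difference of 1 in at least 1 setting. The cause was not tested. EV libraries had 17007632 to 21004868 reads, which limits genes near the minimum, and p-values measure the spread between libraries only.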

Other observations

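Other gene groups, chosen after their values were seen, also separated the cultures. CYP1B1 and CYP1A1 encode cytochromes P450 that the aryl hydrocarbon receptor induces. CYP1B1 was at 0.38, 0.19 and 0.29 CPM in EV and 423, 499 and 421 in sgCtrl. CYP1A1 was at 11.4, 13.5 and 9.02 in sgCtrl and had 0 reads in the EV libraries, so that it was at least 73.2-fold lower in EV against a floor of 3 reads per library. The libraries labelled KIF20A overexpression in the same table held CYP1A1 at 1.07 to 1.22. The receptor gene AHR was at 153, 132 and 150 in EV and 105, 108 and 113 in sgCtrl, a difference of 0.41 that was not called, and TIPARP, another gene it induces, had overlapping groups.

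Some MHC class II genes, with their chaperone and activator genes, were lower in EV, as were 9.28% of all genes. These 5 were picked after their values were seen, so their common direction is no count over the class. HLA-DRA, the α chain gene of HLA-DR, was at 1.62, 1.89 and 11.2 in EV and 66.9, 67.4 and 64.7 in sgCtrl. HLA-DPA1 and HLA-DPB1 differed by -5.49 and -4.18 on the log2 scale, both with exons that overlap another gene. CD74, the chaperone of class II molecules, was at 157 to 225 in EV and 529 to 827 in sgCtrl, and CIITA, their transcriptional activator, at 16.5 to 21.0 against 30.3 to 71.4. The complement component C3 was at 0.24, 0.10 and 2.88 in EV and 358, 369 and 257 in sgCtrl.

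Developmental regulators and surface genes stood on the other side. The endodermal factor FOXA2 was at 74.9, 64.3 and 81.2 in EV and 1.95, 2.02 and 0.77 in sgCtrl. SEMA3A, a secreted guidance cue, was at 74.9, 86.3 and 95.6 against 1.76, 1.44 and 1.86, and the hyaluronan synthase gene HAS2 at 135, 54.8 and 52.3 against 2.00, 1.60 and 1.98. ITGA10, a collagen-binding integrin chain, was at 118, 40.1 and 232 in EV and 0.34 to 1.11 in sgCtrl, with a wide spread between EV libraries.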
